A study of Mus musculus with 12 samples.

Results

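Oncofetal liver cancer markers are proteins that the fetal liver or other fetal and epithelial tissues make, that the healthy adult liver makes little of, and that liver cancers can make again. Here 8 such genes were followed, Afp, Gpc3, Golm1, Tff3, Spink3, Ly6d, Akr1b7 and Bex1, out of 19012 gene symbols measured. They were taken by name, as a list of markers chosen with earlier results of these data known. No count over them is therefore independent support. Each symbol was read from its longest transcript. All 8 were in the data, and all 8 had at least 0.5 RPKM in at least 4 of 12 libraries, the level needed to enter the tests. RPKM is the number of reads per kilobase of exon and per M (mega) reads of the library.

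The study measured polyadenylated RNA by sequencing in 12 mouse liver libraries. They were 4 liver tumors of mice labelled E2F7/8 DKO (double knockout of E2f7 and E2f8, the atypical, repressing members of the E2F transcription factor family), 4 livers labelled E2F7/8 DKO, and 4 livers labelled wt (wild type). By the animal codes in the data names, tumor and DKO liver with the same number came from the same animal, so every DKO liver came from an animal that also gave a tumor. The wild-type livers carry the codes of 4 other animals. Strain, sex, age, the driver and the extent of the deletions, and how the tumors arose are not given in the sources used here.

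The genes code for proteins of different kinds. Afp codes for alpha-fetoprotein, the main plasma protein of the fetus, a relative of albumin that is shut down in the liver after birth, in mice under repressors that include Zhx2 and Zbtb20. Tff3 (trefoil factor 3, a secreted mucosal repair peptide of goblet cells) and Spink3 (a secreted trypsin inhibitor, the mouse counterpart of human SPINK1) are also secreted. Gpc3 (glypican-3, a heparan sulfate proteoglycan anchored to the cell surface and a tissue marker of human hepatocellular carcinoma), Ly6d (a lipid-anchored surface protein of the Ly6 family) and Golm1 (a Golgi membrane protein whose shed form is a serum marker of human liver cancer) belong to the cell surface or the secretory path. Akr1b7 (an aldo-keto reductase that clears reactive aldehydes, known from the mouse adrenal gland and vas deferens) and Bex1 (an X-linked adaptor protein best known from brain) act inside the cell.

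Promoters are shown for 4 members, because their levels below put tumor 4 at opposite ends of the tumors: Afp and Akr1b7 were highest in tumor 4, and Golm1 and Bex1 were lowest in it. RefSeq gave a promoter window, 250 bases before to 50 after the annotated start, for 5 of the 8 genes under the symbols used here (build GRCm38.p6). Spink3 was not looked up under its current name, Spink1. The capitals mark matches on either strand to TATAAA (the TATA box letters), GTTAAT (letters of one arm of an HNF1 site) or TGTTTAC (letters of a FOXA site).
Afp (chr5:90490464-90490763, plus strand): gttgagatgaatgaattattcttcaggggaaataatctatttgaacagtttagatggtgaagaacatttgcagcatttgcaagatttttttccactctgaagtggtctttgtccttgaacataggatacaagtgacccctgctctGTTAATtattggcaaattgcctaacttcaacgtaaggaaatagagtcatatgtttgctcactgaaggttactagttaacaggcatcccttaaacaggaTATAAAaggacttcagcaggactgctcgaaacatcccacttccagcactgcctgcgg
Akr1b7 (chr6:34412112-34412411, plus strand): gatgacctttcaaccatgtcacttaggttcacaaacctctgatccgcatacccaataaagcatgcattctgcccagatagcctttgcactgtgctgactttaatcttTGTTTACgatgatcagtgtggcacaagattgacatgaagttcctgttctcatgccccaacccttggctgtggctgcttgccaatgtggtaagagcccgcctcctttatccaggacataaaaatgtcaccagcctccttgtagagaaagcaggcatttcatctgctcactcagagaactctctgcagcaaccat
Golm1 (chr13:59675735-59676034, minus strand): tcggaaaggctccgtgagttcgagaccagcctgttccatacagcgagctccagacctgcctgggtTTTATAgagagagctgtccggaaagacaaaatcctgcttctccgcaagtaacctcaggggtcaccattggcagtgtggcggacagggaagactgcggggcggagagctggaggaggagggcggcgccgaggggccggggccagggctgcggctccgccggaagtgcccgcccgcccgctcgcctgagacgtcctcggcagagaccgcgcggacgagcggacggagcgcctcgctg
Bex1 (chrX:136215464-136215763, minus strand): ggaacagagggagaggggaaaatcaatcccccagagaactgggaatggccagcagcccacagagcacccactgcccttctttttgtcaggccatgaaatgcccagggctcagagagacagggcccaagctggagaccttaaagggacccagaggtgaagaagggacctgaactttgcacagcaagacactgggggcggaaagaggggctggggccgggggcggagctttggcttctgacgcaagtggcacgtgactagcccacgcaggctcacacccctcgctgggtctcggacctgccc
The Afp window held TATAAA, 7 bases before the annotated start, and GTTAAT, 105 bases before it. Of all 32851 promoter windows of this length, 13.6% held TATAAA and 7.10% held GTTAAT. The Akr1b7 window held TGTTTAC, 143 bases before the start, as did 3.65% of all windows. In the Golm1 window the letters TATAAA lay on the opposite strand, 185 bases before the start, and the Bex1 window held none of the 3 motifs. TGACTCA (the AP-1 letters, in 5.20% of all windows) and the E2F letters TTTCCCGC (1.07%) and TTTGGCGC (0.514%) were in none of the 5 windows, which says only that these letters are not in them. Base composition also differed: 40.0% of the Afp window and 47.0% of the Akr1b7 window were G or C, against 61.3% for Bex1, 67.0% for Golm1 and 70.7% for Gpc3, with a median of 52.7% over all windows. The windows of Golm1 and Gpc3 held 30 CpG pairs each, that of Bex1 held 8, and those of Afp and Akr1b7 held 3 each.

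Library depth was 7.98 to 16.0 M reads. E2f8 averaged 5.70 ± 4.60 RPKM in DKO tumors, 9.75 ± 7.70 in DKO livers and 2.70 ± 1.13 in wild-type livers (SD, n = 4 each), and E2f7 averaged 0.179, 0.281 and 0.138 RPKM in the same groups. Neither level was lower in the DKO groups, but reads summed over a whole transcript do not check a deletion of part of it, so the groups are named as labelled. The hepatocyte genes Alb, Apoa1, Ttr, Fgb and Hnf4a were high in every library, with sums of 72750 to 131700 RPKM in tumors, 43350 to 115500 in DKO livers and 49910 to 74930 in wild-type livers. Alb was the largest part of each sum. Ttr averaged less in tumors than in wild-type livers (2401 and 4476 RPKM), and the other 4 averaged more. The data names carry a tag that the labels do not explain, L03 for all 4 tumors and wild-type livers 3 and 4, and L02 for the DKO livers, 4 of 4, and the remaining wild-type livers, 1 and 2. Some genes followed the tag: Igf2, a fetal growth factor gene, was at 0.0564 to 1.13 RPKM in the 6 L03 libraries and at 7.11 to 12.4 in the 6 L02 libraries. In all, 190 of 11351 tested genes (1.67%) did not overlap between the tags, and 0 of the 8 members were among them. Tumor and DKO liver cannot be told apart from the tag, whereas tumors can be set against the 2 wild-type livers of their own tag.

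All 8 markers had a higher mean in the tumors than in wild-type liver, and 1 of them, Afp, passed the test, where 1.23% of all tested genes were called higher. Afp averaged 20.2 ± 23.0 RPKM in tumors and 1.46 ± 0.597 in wild-type livers, Tff3 139.9 ± 97.9 and 15.3 ± 9.55, and Akr1b7 28.5 ± 47.1 and 1.19 ± 1.16 (SD, n = 4 each). The 8 genes did not move together across the tumors: the tumor with the highest Afp, Akr1b7 and Ly6d had the lowest Tff3, Golm1, Spink3 and Bex1. In DKO livers, 0 of 8 markers and 0% of all tested genes passed against wild-type liver. Summed over the 8 genes, the level was 198, 299, 169 and 227 RPKM in tumors 1 to 4, 19.5, 115, 80.7 and 30.8 in DKO livers 1 to 4, and 15.0, 23.1, 40.6 and 21.9 in wild-type livers 1 to 4, most of it Tff3 in tumors 1 to 3.

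**Figure D1:**
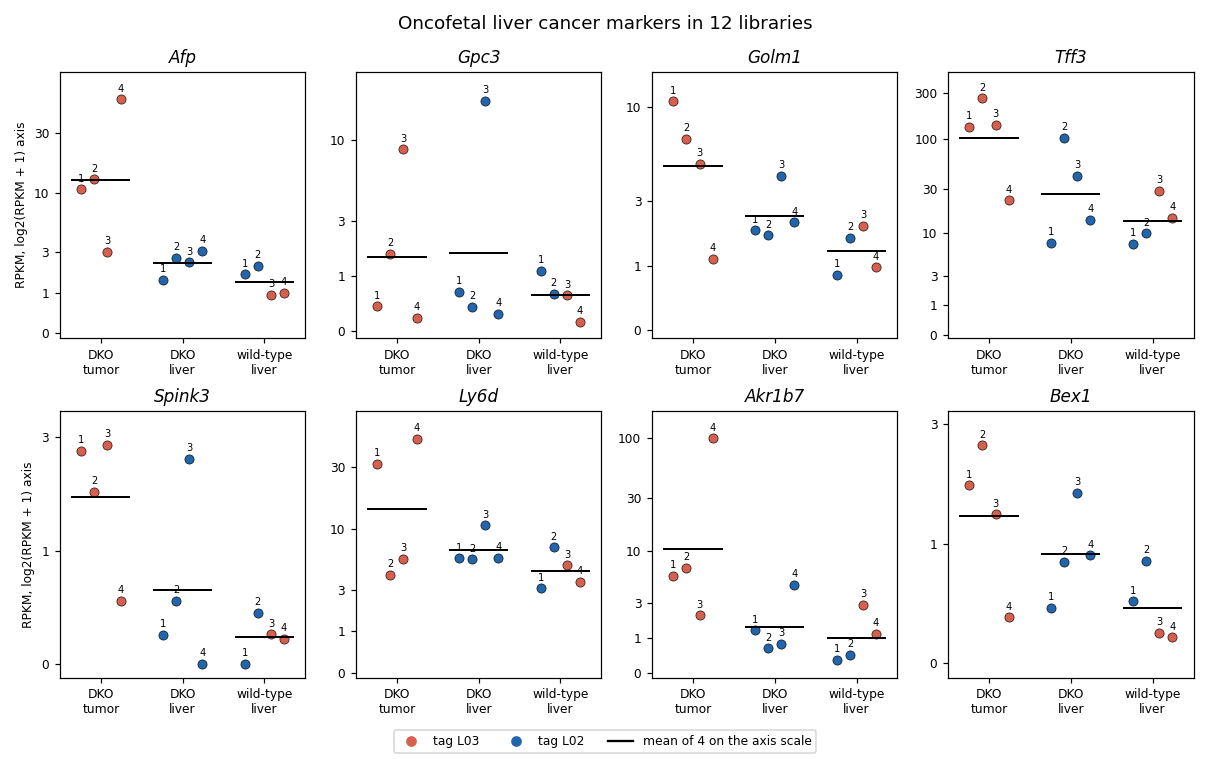
RPKM on a log2(RPKM + 1) axis of the 8 markers in DKO tumors, DKO livers and wild-type livers, with 1 numbered point per library, colored by tag, and a bar at the group mean. All 4 tumors lie above every wild-type liver for Afp and Spink3, while Gpc3 is high in tumor 3 and DKO liver 3 only.

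Afp was the 1 marker called in tumors against wild-type livers. On mm9 the transcript lies on chromosome 5 from 90919739 to 90937932, plus strand. It was at 10.8, 13.0, 3.05 and 54.1 RPKM in tumors 1 to 4 (91 to 1695 reads), at 1.51, 2.63, 2.37 and 3.1 in DKO livers 1 to 4, and at 1.74, 2.17, 0.928 and 1.01 in wild-type livers 1 to 4. Tumor 4 was far above the rest and tumor 3 was the lowest, yet each tumor exceeded every wild-type liver and its own liver. The tumors exceeded wild-type livers by 2.52 on the log2(RPKM + 1) scale (SE 0.57, 95% interval 1.27 to 3.77, limma adjusted p = 0.0474 over 11351 genes). The offset of 1 understates the change of low genes, and the ratio of the mean RPKM was 13.8, or 6.11 without tumor 4. The call sat near the threshold: with each library left out in turn it held in 2 of 12 fits, those without tumor 3 or without tumor 4 (adjusted p = 0.00459 and 0.0406), and the difference lay between 1.86 and 3.11 throughout. Against the 2 wild-type livers of the tumors' own tag the difference was 2.81 (adjusted p = 0.457), and with the tag as a covariate the adjusted p was 0.235.

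Between tumor and liver of the same animal, Afp was 7.16, 4.94, 1.29 and 17.4 times as high in the tumor of animals 1 to 4. It was therefore higher in the tumor in 4 of 4 animals, although tumor 3 (3.05 RPKM) did not exceed DKO liver 4 (3.1 RPKM). The difference was 2.05 on the log2(RPKM + 1) scale with an adjusted p of 0.138, or 0.128 with the animal as a block. DKO livers exceeded wild-type livers by 0.48 (95% interval -0.78 to 1.73, adjusted p = 0.747), with overlapping groups. Levels in whole tissue do not tell more Afp RNA per cell from more cells that make it, which holds for every gene here.

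Tff3 was the most abundant of the markers per length of transcript. It lies on mm9 chromosome 17 from 31262259 to 31266555, minus strand, and was at 134, 262, 140.3 and 22.8 RPKM in tumors 1 to 4. DKO livers 1 to 4 had 7.74, 103, 41.4 and 13.9 RPKM, and wild-type livers 1 to 4 had 7.53, 9.91, 28.9 and 14.7. Tumors 1 to 3 were above every DKO liver and every wild-type liver, and tumor 4 lay within the wild-type range. The tumors exceeded wild-type livers by 2.86 on the log2(RPKM + 1) scale (SE 0.82, adjusted p = 0.0938), and by 3.57 without tumor 4 (adjusted p = 0.0452). With each library left out in turn that was the only 1 of 12 fits to pass, and limma adjusted p-values reached 0.246. Each tumor exceeded its own liver, by 17.4, 2.55, 3.39 and 1.64 times in animals 1 to 4, with an adjusted p of 0.273 over the groups. DKO livers 2 and 3 were above every wild-type liver, but the difference of 0.93 between DKO and wild-type livers came with an interval of -0.86 to 2.72 (adjusted p = 0.644). Of the intestinal and goblet cell markers, 5 of 6 were measured, with sums of 33.7 to 92.9 RPKM in tumors, 38.5 to 64.5 in DKO livers and 59.3 to 108 in wild-type livers. Nearly all of that sum was Fabp2. Cdx2 and Agr2 were at 0 in all 12 libraries, whereas Vil1 was at 0.1152 to 1.101 RPKM and Lgals4 at 0.2034 to 1.046. The listed marker that was not measured cannot be read as absent, and the part of such cells in the Tff3 level was not tested.

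Spink3 was scarce, and its values rest on few reads. The gene, on mm9 chromosome 18 from 43887722 to 43896890, minus strand, is now named Spink1. Tumors 1 to 4 had 2.67, 1.87, 2.82 and 0.473 RPKM (18, 10, 17 and 3 reads). DKO livers 1 to 4 had 0.196, 0.472, 2.5 and 0 RPKM (1, 2, 13 and 0 reads), and wild-type livers 1 to 4 had 0, 0.370, 0.199 and 0.167 RPKM (0, 2, 1 and 1 reads). A count of 0, taken as up to 3 reads, allows up to 0.767 RPKM in DKO liver 4 and 0.890 in wild-type liver 1, for counting error only. Each tumor was above every wild-type liver, but tumor 4 lay below those limits. Spink3 entered the tests only through tumors 1 to 3 and DKO liver 3, so that its difference of 1.24 (SE 0.37, adjusted p = 0.104) carries that choice. DKO liver 3 lay within the range of tumors 1 to 3, and the other DKO livers were below those limits. The tumors minus DKO livers came to 0.82 (adjusted p = 0.305), and DKO livers minus wild-type livers to 0.42 (adjusted p = 0.644). Without tumor 4 the difference between tumors and wild-type livers was 1.54 (adjusted p = 0.0490), with the same limit from how the gene entered the tests. With each library left out in turn 2 of 12 fits passed, and limma adjusted p-values reached 0.258. Of the pancreatic acinar markers, Prss1 was at 0 in all 12 libraries and most of the sum was Cela2a. That sum was 0.481 to 5.55 RPKM in tumors, 1.64 to 4.72 in DKO livers and 0.514 to 3.71 in wild-type livers.

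Gpc3 was high in both libraries of animal 3. It lies on mm9 chromosome X from 49625622 to 49967097, minus strand, and was at 0.371, 1.65, 8.79 and 0.182 RPKM in tumors 1 to 4. DKO livers 1 to 4 had 0.640, 0.363, 17.0 and 0.246 RPKM, and wild-type livers 1 to 4 had 1.14, 0.604, 0.575 and 0.128. The tumor and the liver of animal 3 were the 2 highest of 12 libraries, and of the other 6 DKO libraries only tumor 2 was above the wild-type range. The tumors exceeded wild-type livers by 0.70 (interval -1.11 to 2.5, adjusted p = 0.711), the DKO livers did so by 0.76 (interval -1.04 to 2.56, adjusted p = 0.714), and tumors minus DKO livers came to -0.06 (interval -1.87 to 1.74, adjusted p = 0.980), a sign that turned with median-of-ratios scaling (0.03) and quantile normalization (0.05). Without both libraries of animal 3 the tumors minus wild-type livers came to 0.05, the DKO livers minus wild-type livers came to -0.16 and the tumors minus DKO livers to 0.21. Both libraries of animal 3 also had the highest sums of the 7 cholangiocyte markers, 124 RPKM in tumor 3 against 22.0 to 42.2 in the other tumors, and 175 in DKO liver 3 against 34.4 to 51.4 in the other DKO livers, with 29.97 to 46.0 in wild-type livers. Most of that was 1 gene, Spp1, at 103 RPKM in tumor 3 and 154 in DKO liver 3. The other 6 cholangiocyte markers summed to 20.7 RPKM in tumor 3 against 9.88 to 15.95 in the other tumors, to 21.2 in DKO liver 3 against 11.2 to 14.4 in the other DKO livers, and to 6.87 to 11.8 in wild-type livers. The sum of the 6 stellate cell and fibroblast markers was 216 RPKM in tumor 3 against 50.8 to 60.4 in the other tumors, 301 in DKO liver 3 against 84.1 to 211 in the other DKO livers, and 96.9 to 133 in wild-type livers. The 211 RPKM was in DKO liver 1, where Gpc3 was at 0.640 RPKM. No marker of either list was at 0 throughout, and the part of these cells in the Gpc3 level was not tested.

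Ly6d was high in 2 of the 4 tumors. On mm9 it lies on chromosome 15 from 74592485 to 74593996, minus strand. It was at 31.7, 4.10, 5.67 and 48.4 RPKM in tumors 1 to 4, at 5.74, 5.63, 10.7 and 5.77 in DKO livers 1 to 4, and at 3.08, 7.12, 4.99 and 3.56 in wild-type livers 1 to 4. Tumors 1 and 4 were above every liver, and tumors 2 and 3 were within the wild-type range and below their own livers. Tumors minus wild-type livers gave 1.48 (SE 0.62, adjusted p = 0.220) and tumors minus DKO livers 0.99 (adjusted p = 0.451). Without tumor 4 these differences were 0.92 and 0.43. The DKO livers exceeded wild-type livers by 0.49 (adjusted p = 0.759). B cell precursors also carry Ly6d in mice. The 4 B cell markers were measured, and their sums of 0.517 to 7.07 RPKM in tumors, 1.5 to 12.7 in DKO livers and 0.449 to 8.89 in wild-type livers were lowest among tumors in tumor 4, where Ly6d was highest, and highest among DKO livers in DKO liver 3, where Ly6d was also highest. The part of B cells in the Ly6d level was not tested.

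Golm1 was above every liver in tumors 1 to 3. Its longest transcript lies on mm9 chromosome 13 from 59736356 to 59777144, minus strand. Tumors 1 to 4 had 10.7, 6.84, 5.0 and 1.15 RPKM, DKO livers 1 to 4 had 1.93, 1.78, 4.26 and 2.19, and wild-type livers 1 to 4 had 0.814, 1.71, 2.07 and 0.970. Tumor 4 alone fell inside the wild-type range and below its own liver. Tumors and wild-type livers differed by 1.33 (SE 0.42, adjusted p = 0.120), and by 1.81 without tumor 4 (adjusted p = 0.0150). With each library left out in turn that was the only 1 of 12 fits to pass, and limma adjusted p-values reached 0.295. The tumors exceeded DKO livers by 0.78 (adjusted p = 0.390), and the DKO livers exceeded wild-type livers by 0.55 (adjusted p = 0.597). Of the stretches of 35 bases of the Golm1 transcript in GENCODE (GRCm38), 24.4% also occur in transcripts of Naa35, which overlaps Golm1 on the other strand in that annotation, although 0 of the transcripts measured here under another symbol overlapped it. The length of 35 bases is an assumption, here and for the genes below, because no source used here gives the read length.

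Akr1b7 had the widest spread of any marker among the tumors apart from Gpc3. It lies on mm9 chromosome 6 from 34362361 to 34373136, plus strand, and was at 5.78, 6.94, 2.13 and 99.1 RPKM in tumors 1 to 4. DKO livers 1 to 4 had 1.33, 0.639, 0.780 and 4.67 RPKM, and wild-type livers 1 to 4 had 0.301, 0.438, 2.83 and 1.18. Tumor 4 was 46.6 times as high as tumor 3, and the liver of the same animal was the highest of the DKO livers. The tumors exceeded wild-type livers by 2.52 (SE 0.86, interval 0.65 to 4.38, adjusted p = 0.138), about the same difference as Afp with a wider interval. Without tumor 4 it was 1.47 (adjusted p = 0.142), and the mean of the other 3 tumors was 4.95 RPKM. Each tumor exceeded its own liver, by 4.36, 10.9, 2.73 and 21.3 times in animals 1 to 4. Over the groups that came to 2.19 (adjusted p = 0.238, or 0.117 with the animal as a block), and to 1.15 without tumor 4. The difference between DKO and wild-type livers was 0.32 (adjusted p = 0.897), and -0.07 without DKO liver 4. Akr1b7 shares 24.9% of its 35-base stretches with other genes, Akr1b10 among them, and is uncertain to that extent. The adrenal markers Cyp11b1 and Nr5a1 were at 0.0296 RPKM or less in every library, and the sum of the 5 adrenal markers, most of it Hsd3b1, was 0.788 to 5.42 RPKM in tumors, 0.656 to 5.26 in DKO livers and 2.05 to 2.99 in wild-type livers.

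Bex1 had the smallest difference between tumors and wild-type livers after Gpc3. It lies on mm9 chromosome X from 132748510 to 132750051, minus strand. Tumors 1 to 4 had 1.81, 2.55, 1.37 and 0.307 RPKM (25, 28, 17 and 4 reads), DKO livers 1 to 4 had 0.382, 0.806, 1.69 and 0.872 RPKM, and wild-type livers 1 to 4 had 0.434, 0.811, 0.194 and 0.162 RPKM. Tumors 1 to 3 were above every wild-type liver and tumor 4 was not. Tumors minus wild-type livers came to 0.77 (SE 0.28, adjusted p = 0.157), and to 1.06 without tumor 4 (adjusted p = 0.0474). With each library left out in turn that was the only 1 of 12 fits to pass, and limma adjusted p-values reached 0.373. The tumors exceeded DKO livers by 0.33 (adjusted p = 0.601), and the DKO livers exceeded wild-type livers by 0.45 (adjusted p = 0.513). Bex1 shares 41.1% of its 35-base stretches with other genes, of which Bex4, Bex2 and Tceal7 share the most. That is the highest share of the 8, and Bex1 is uncertain to that extent. The sums of 5 nerve and endocrine markers were 0.523 to 2.31 RPKM in tumors, 1.33 to 2.19 in DKO livers and 0.622 to 0.950 in wild-type livers. Snap25 was at 0 in all 12 libraries, whereas Syp was at 0.134 to 1.41 RPKM and Tubb3 at up to 0.528. Tumor 4, where Bex1 was lowest among tumors, had the sum of 2.31 RPKM, with Uchl1 at 1.29 and Chga at 0.566. The part of such cells in the Bex1 level was not tested.

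**Figure D2:**
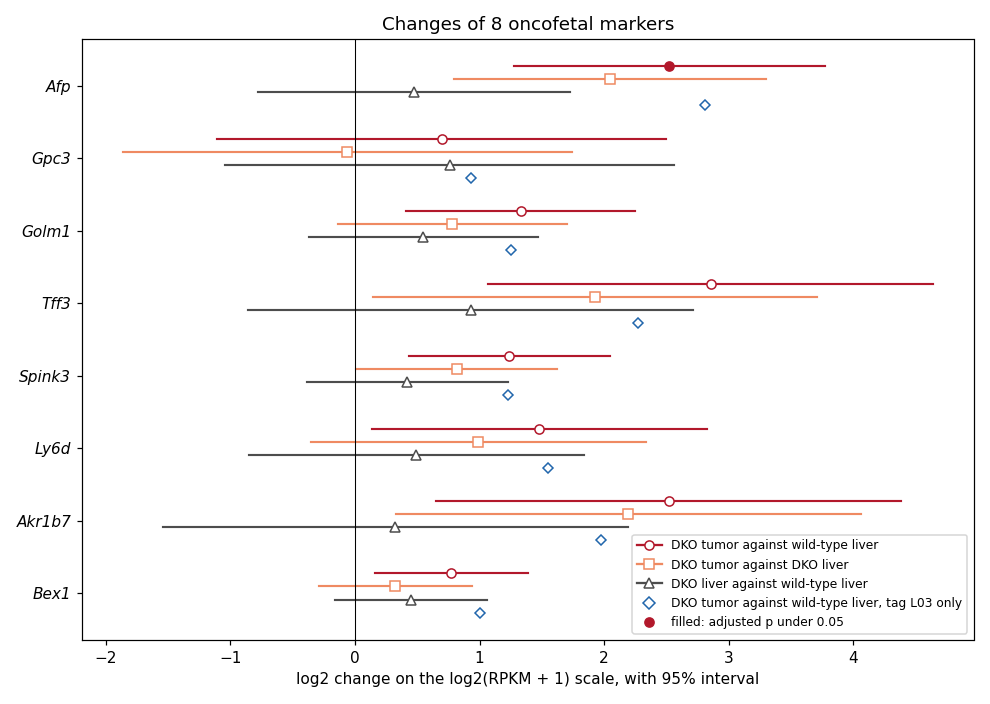
Difference in log2(RPKM + 1) for each marker in the 3 comparisons, with its 95% interval, and as diamonds for tumors against the wild-type livers of tag L03 alone. All 8 points lie above 0 for DKO tumor against wild-type liver, and Afp is the one with an adjusted p under 0.05.

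Read against all genes, the markers stood as follows for tumors against wild-type livers. The list was chosen with earlier results of these data known. Counts and medians over it, here and for the other comparisons, describe the list and are no independent support. Among 11351 tested genes 1.90% were called in either direction and 1.23% were called higher, and of the members 1 of 8 was called, Afp. An unadjusted p under 0.05 was reached by 7 of 8 members, against 19.2% of all genes. The median difference of the members was 1.41 on the log2(RPKM + 1) scale, against -0.02 over all genes, and 8 of 8 were positive, against 47.1% of all genes. The tumors lay wholly above wild-type livers for 2 members, Afp and Spink3, as for 5.57% of all genes, and wholly apart in either direction for the same 2, as for 11.9% of all genes. Spink3 entered the tests only through tumors and DKO liver 3, so every count that includes it, here and below, carries that choice. Without both libraries of DKO animal 4, a choice made after the data were seen, 5 members were called (Afp, Golm1, Tff3, Spink3 and Bex1), and 284 genes in all (2.5%). Within tag L03, where 0.220% of genes were called, 0 members were, with differences from 0.93 for Gpc3 to 2.81 for Afp and adjusted p-values of 0.338 to 0.824. All 8 differences stayed positive there. With the tag as a covariate 0.0264% of genes and 0 members were called.

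For DKO livers against wild-type livers 0% of genes and 0 of 8 members were called by limma, and 12.4% of genes but 0 members had an unadjusted p under 0.05. The median difference of the members was 0.48, against 0.08 over all genes, and all 8 were positive, against 60.5% of all genes. The groups did not overlap for 0 members, against 7.59% of all genes. For tumors against DKO livers 1 gene (0.00881%) and 0 of 8 members were called, and 4 members (Afp, Tff3, Spink3 and Akr1b7) had an unadjusted p under 0.05, against 16.1% of all genes. The median difference of the members was 0.90, against -0.09 over all genes, and 7 of 8 were positive, against 37.2% of all genes. The groups did not overlap for 0 members, against 6.20% of all genes. In the same comparison the 6 macrophage markers had a median difference of -1.38 with 0 positive, and sums of 33.9 to 176 RPKM in tumors and 139 to 343 in DKO livers. Medians were -0.70 for the 6 stellate cell and fibroblast markers and -0.57 for the 4 T cell markers, again with 0 positive, 0 genes of the 3 lists were called, and their part in the members' differences was not tested. With median-of-ratios scaling the median over all genes was 0.02 in place of -0.09, and with quantile normalization 13 genes were called higher and 11 lower. With the animal as a block 71 genes (0.625%) and again 0 members were called, with adjusted p-values of 0.117 for Akr1b7, 0.128 for Afp, 0.143 for Tff3 and 0.159 for Spink3. The 3 comparisons share their groups, so their differences are not independent.

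**Figure D3:**
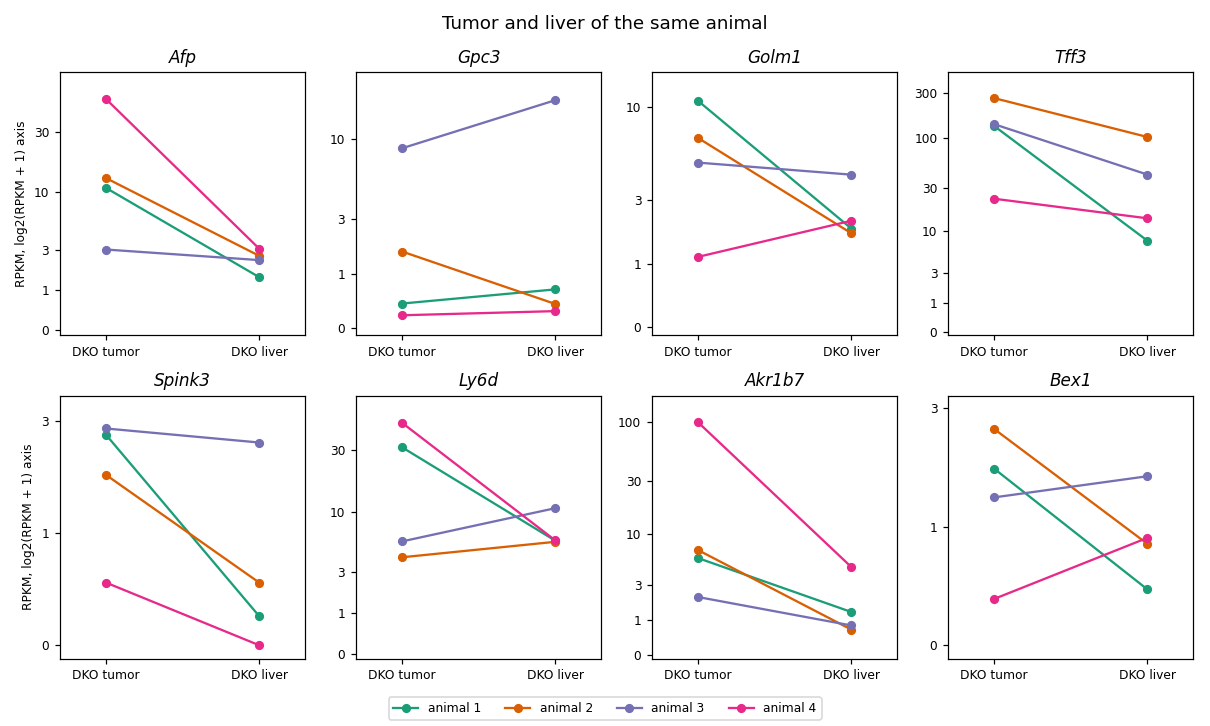
RPKM on a log2(RPKM + 1) axis of each marker in the tumor and the liver of the same DKO animal, joined by a line. Afp, Tff3, Spink3 and Akr1b7 are higher in the tumor in 4 of 4 animals, Golm1 in 3, Bex1 and Ly6d in 2 and Gpc3 in 1.

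The markers split the 4 tumors by animal. Relative to the wild-type mean on the log2(RPKM + 1) scale, Afp was 4.52 higher in tumor 4 and 0.75 higher in tumor 3, whereas Tff3 was 0.72 higher in tumor 4 and 3.29 higher in tumor 3. Over the 12 libraries, which share animals, groups and tags, Afp and Akr1b7 had a Pearson r of 0.89 and Afp and Ly6d of 0.77. Golm1 had r of 0.87 with Spink3, 0.87 with Bex1 and 0.79 with Tff3. Between these sets r was lower, for example 0.10 for Golm1 with Akr1b7 and 0.12 for Ly6d with Bex1. Gpc3 was nearest to Spink3, at 0.68, both being high in the libraries of animal 3. These values describe the libraries and were given no test.

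**Figure D4:**
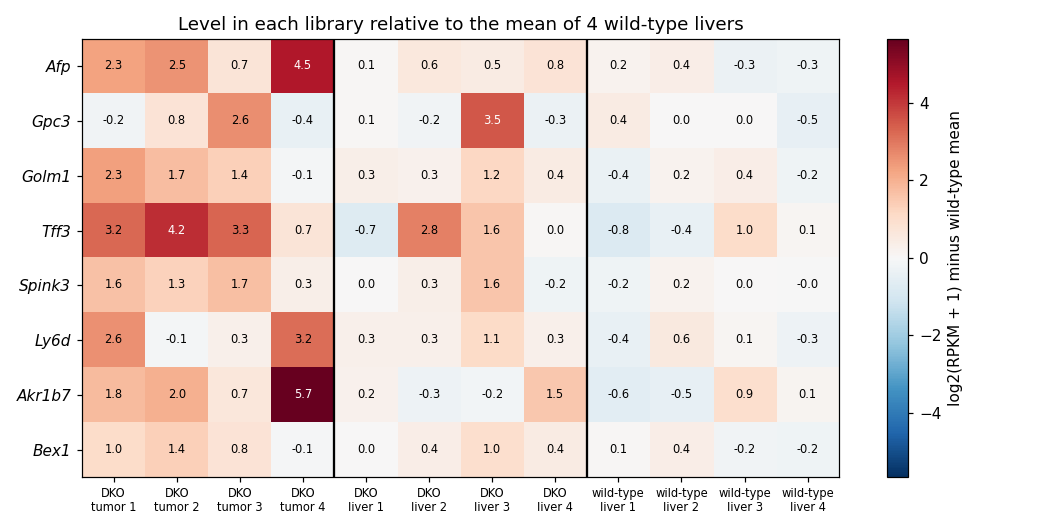
Difference of each marker from its wild-type mean in log2(RPKM + 1), with 1 column per library. Tumor 4 is high for Afp, Akr1b7 and Ly6d and near 0 for Golm1 and Bex1, and tumor 3 and DKO liver 3 are high for Gpc3.

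The genes most like each marker across the 12 libraries, by Pearson r of log2(RPKM + 1), were as follows. For Afp they were Gprc5b (r = 0.956), Slc1a4 (0.949), a neutral amino acid transporter, and Zfp704 (0.946). Slc1a4 was at 8.80, 10.1, 3.33 and 15.0 RPKM in tumors 1 to 4, and its livers had 1.56 to 2.90 RPKM if DKO and 1.62 to 1.96 if wild type. For Tff3 they were Gldn (0.966), Psg18 (0.909) and Cstf3 (0.907). Gldn, which codes for gliomedin, was at 16.3, 17.5, 12.3 and 2.51 RPKM in tumors 1 to 4, at 0.267, 5.85, 2.02 and 1.58 in DKO livers 1 to 4 and at 0.323 to 1.79 in wild-type livers, so it shared the high DKO liver 2 and the low tumor 4 with Tff3. Spink3 was most like Amot (0.912), Gpc6 (0.910) and Tinag (0.903), and Bex1 was most like Kif4 (0.928), Sstr2 (0.918) and Rrm2 (0.914), the small subunit of ribonucleotide reductase. The sum of 4 cell division genes (Top2a, Cdk1, Ccnb1 and Birc5) was 4.55 to 15.3 RPKM in tumors, 2.26 to 10.9 in DKO livers and 1.45 to 4.14 in wild-type livers. It was highest in tumor 2 and DKO liver 3, as Bex1 was. For tumors against wild-type livers limma called 0 of the 4, and 1.90% of all tested genes. Their median difference was 0.87, and 4 of 4 had an unadjusted p under 0.05, against 19.2% of all genes. Tumors lay wholly above wild-type livers for 3 of the 4, as for 5.57% of all genes.

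Gpc3 was most like Ctgf (r = 0.958, now named Ccn2), a matrix protein of fibrosis, Krt23 (0.955) and Lyve1 (0.951), a hyaluronan receptor of lymphatic and sinusoidal endothelium. Lyve1 was at 12.8 RPKM in tumor 3 against 0.408 to 2.14 in the other tumors, at 17.3 in DKO liver 3 against 1.11 to 1.4 in the other DKO livers, and at 0.384 to 1.11 in wild-type livers. Ly6d was most like Syt12 (0.919), Ly6c1 (0.909) and Sema7a (0.879). Golm1 was most like Col4a5 (0.961), 6332401O19Rik (0.943, now named Tmem229a) and Ust (0.915). Akr1b7 was most like Nupr1 (0.938), a stress-induced nuclear protein, EG629219 (0.931, now named Sult2a6) and Drctnnb1a (0.926). EG629219 was at 4.24, 23.6, 3.99 and 228 RPKM in tumors 1 to 4, at 0 to 1.26 in DKO livers and at 0 to 4.41 in wild-type livers.

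Other oncofetal and progenitor genes were read from a list of 25, of which 24 were measured and 14 tested. For tumors against wild-type livers 3 of the 14 rose, 0 fell, and the median difference was 0.67 on the log2(RPKM + 1) scale, against 1.23% of all tested genes called higher, 0.67% called lower and a median of -0.02. Prom1, a surface protein of liver progenitor cells, rose to 9.56 ± 5.45 RPKM in tumors, against 0.654 ± 0.256 in wild-type livers (difference 2.5, adjusted p = 0.0215). Tspan8, a tetraspanin of epithelial tumors, rose to 31.7 ± 14.2 RPKM, against 6.13 ± 4.03 (2.28, adjusted p = 0.0215). Scd2, a stearoyl-CoA desaturase of the embryonic mouse liver, rose to 64.4 ± 68.3 RPKM, against 5.35 ± 2.61 (2.90, adjusted p = 0.0296). All 4 tumors lay above all 4 wild-type livers for these 3 genes, and with each library left out in turn Prom1 and Tspan8 passed in 8 of 12 fits and Scd2 in 7. Within tag L03 the differences were 2.33, 1.66 and 2.5, with adjusted p-values of 0.268, 0.224 and 0.478. In DKO livers 0 of the 14 and 0% of all tested genes were called against wild type.

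For tumors against DKO livers 0 of the 14 were called, and 0.00881% of all tested genes. With the animal as a block 4 of the 14 were called, and 0.625% of all tested genes. The 4 were Igf2, which fell by 2.85, and Tspan8 (2.5), Mdk (1.75) and Epcam (1.24), which rose, with adjusted p-values of 0.00105 to 0.0317. For these 4 genes the wild-type livers also differed by tag. Igf2 averaged 0.163 RPKM in wild-type livers 3 and 4 and 9.73 in wild-type livers 1 and 2, Mdk 3.61 and 0.329, Epcam 4.01 and 0.493, and Tspan8 9.05 and 3.21. Of the 8 markers, Akr1b7 (2.01 and 0.370 RPKM), Tff3 (21.8 and 8.72) and Bex1 (0.178 and 0.623) differed most between the same pairs of wild-type livers, while Spink3 (0.183 and 0.185), Golm1 (1.52 and 1.26) and Ly6d (4.28 and 5.10) differed least. Afp had 0.969 and 1.96 RPKM and Gpc3 0.351 and 0.873, both lower in the livers that share the tumors' tag.

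**Figure D5:**
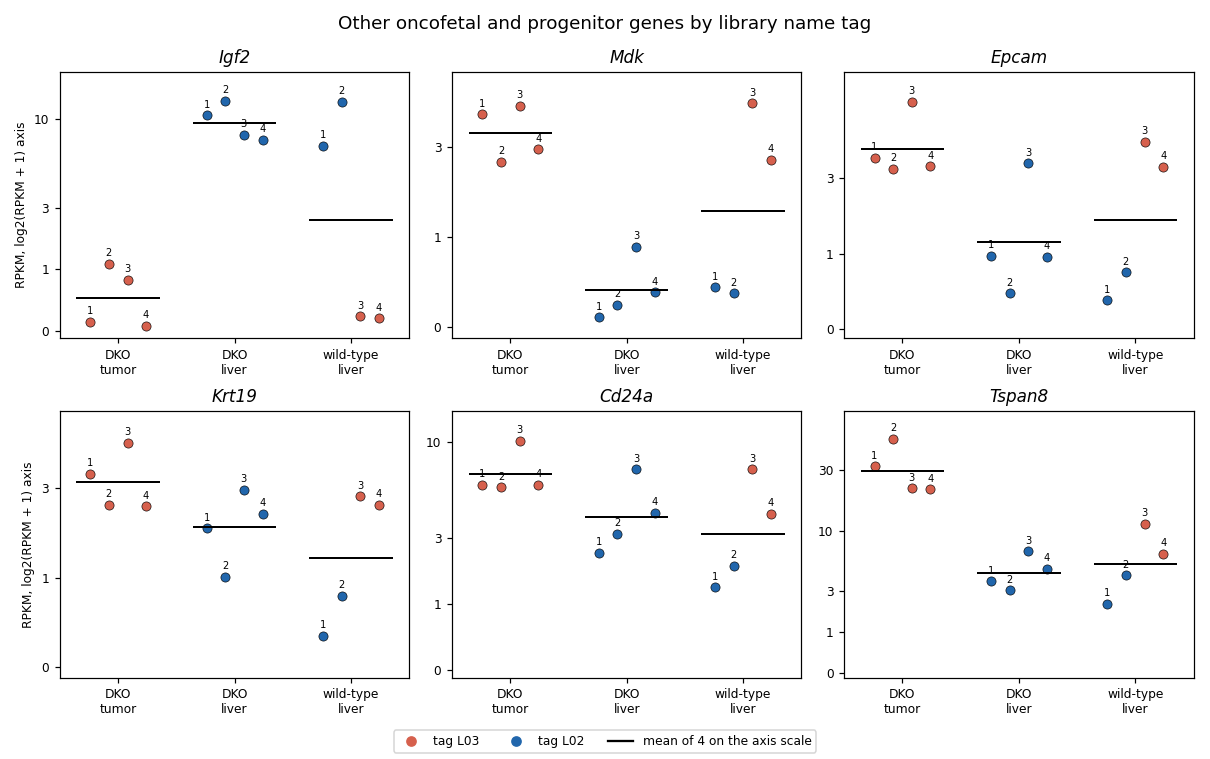
RPKM on a log2(RPKM + 1) axis of Igf2, Mdk, Epcam, Krt19, Cd24a and Tspan8, with 1 numbered point per library, colored by tag, and a bar at the group mean. Igf2 is at most 1.13 RPKM in L03 libraries and at least 7.11 in L02 libraries, and Mdk is at least 2.56 in L03 and at most 0.854 in L02.

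The known regulators of Afp did not pass the test in any comparison, 0 of 13 tested. Of all tested genes 1.90% passed for tumors against wild-type livers, 0% for DKO against wild-type livers and 0.00881% for tumors against DKO livers. A count of 0 is near those shares. Zhx2 and Zbtb20, the postnatal repressors, named for that role and after their values were seen, were not lower in tumors: Zhx2 was at 9.39 ± 0.699 RPKM in tumors and 7.18 ± 1.20 in wild-type livers (difference 0.35, adjusted p = 0.197), and Zbtb20 at 11 ± 3.54 and 9.91 ± 2.22 (0.11, adjusted p = 0.861). The 3 most abundant regulators were the hepatocyte factors Hnf4a, Cebpa and Foxa3. Cebpa averaged 59.7 ± 12.8 RPKM in tumors and 113 ± 24.8 in wild-type livers (-0.91, adjusted p = 0.0640), and all 4 tumors were below every wild-type liver. Hnf4a differed by 0.14 (adjusted p = 0.749) and Foxa3 by 0.52 (adjusted p = 0.231). The other 2 regulators whose tumors lay wholly below wild-type livers were Foxa2 (-0.48) and Nr5a2 (-0.33), and 6.32% of all genes did so.

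Relatives of the markers gave 29 measured genes of 30 listed, 17 of them tested, and 0 passed in any comparison. Of all tested genes 1.90% or fewer passed in each comparison, so a count of 0 is near that share. Albumin, the neighbour and relative of Afp, averaged 80950 ± 25160 RPKM in tumors and 46020 ± 9530 in wild-type livers (0.79, adjusted p = 0.354), and Gc, another relative, 4798 and 4426. Ly6c1, of the family of Ly6d, was at 8.63, 2.24, 1.41 and 17.8 RPKM in tumors 1 to 4, at 0.947 to 2.05 in DKO livers and at 0.501 to 1.19 in wild-type livers (tumors minus wild type 1.82, adjusted p = 0.0875). Tumors 1 and 4 were thus the highest for Ly6c1 and for Ly6d, whereas Ly6e, the most abundant of that family, averaged 546 and 488 RPKM in tumors and wild-type livers. Akr1b8, close in sequence to Akr1b7, was at 2.37 ± 0.820 RPKM in tumors and 4.50 ± 0.642 in wild-type livers (-0.73, adjusted p = 0.0735), the opposite sign to Akr1b7. Akr1b10, which shares sequence with Akr1b7, was at 1.175 ± 0.537 and 0.566 ± 0.238 RPKM (0.445, adjusted p = 0.255), the same sign as Akr1b7. Bex2, which shares sequence with Bex1, was at 0.660 ± 0.278 and 0.120 ± 0.0930 RPKM (0.56, adjusted p = 0.109). Gpc5, the glypican closest to Gpc3, was at 0.0292 RPKM or less in every library, Tff1 was at 0 in all 12, and Tff2 averaged 0.737 RPKM in tumors and 0.614 in wild-type livers.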

How the data were processed

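Per the labels' protocols, polyadenylated RNA was enriched from total RNA and SOLiD libraries were made. The deposited values are RPKM per RefSeq transcript, with mm9 coordinates per the file headers. The submitters' processing notes name BWA and mm9 without role or version, and read length, strand and counting tool are not given in the sources used here.

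The 8 members and all gene lists were chosen with earlier results of these data known, so no count over them is independent support. All members were named, with called genes of each list (or its 3 most abundant), nearest relatives, and the 3 genes most like each member by Pearson r. Symbols absent under their current names were matched by RefSeq accession, and unmatched ones were not analysed here.

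The 21247 transcripts gave 19012 symbols, and the longest transcript was kept for each. Whole reads and depth were recovered from RPKM and exon length, with 99.991% or more of each library's values whole within 0.05 of a read. Limits from counts of 0 cover counting error only, as no molecular identifiers are given, and intervals of differences come from the spread between libraries. The filter kept symbols at 0.5 RPKM or more in 4 or more libraries, and these, kept in every alternative fit but those on the filter or the transcript, entered limma 3.58.1 (R 4.3.3) on log2(RPKM + 1), with 12 libraries, 1 mean per group, intensity trend and robust shrinkage, two-sided, with Benjamini-Hochberg adjustment at 0.05 over all tested genes. The model was tested on simulated data.

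Animal codes pair tumors with DKO livers. The deviations from the group means of same-numbered pairs correlated at 0.117, 0.347, 0.368 and 0.00285, and the animal was a block in an alternative. Tumors 2 and 3 correlated most with their own liver. Tumor 1 correlated more with DKO liver 4 (0.154), and tumor 4 with DKO liver 1 (0.0916) and wild-type liver 1 (0.0981). Promoters came from RefSeq (GRCm38.p6), looked up by symbol and not by accession, and transcript sequences from GENCODE (GRCm38), for sequence only. The rest used Python 3.11.15 (pandas 2.3.3, numpy 2.4.6, matplotlib 3.10.9).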

Additional observations from a re-analysis of the deposited data

Results flagged for a closer look

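Dixon's gap ratio was taken on RPKM in 24 groups of 4 libraries (8 markers in 3 groups). In 6 groups it passed its 95% critical value, and the library set apart was always the highest. Gpc3 in tumor 3, Golm1 in DKO liver 3 and Akr1b7 in DKO liver 4 passed it narrowly. A chance rate of about 1 in 20 holds for normally distributed values, which was not checked for RPKM. The 6 flags are therefore descriptive, and whether they exceed chance was not tested. These flags fell on 2 animals. In animal 3, Gpc3 was at 8.79 RPKM in the tumor and 17.0 in the liver, the highest of each group, and the liver was also the highest DKO liver for Golm1 (4.26 RPKM) and Ly6d (10.7 RPKM). In animal 4, Akr1b7 was at 99.1 RPKM in the tumor and 4.67 in the liver, again the highest of each group. Both libraries of animal 3 also had the highest sums of cholangiocyte markers of their groups, most of it Spp1 (103 RPKM in the tumor and 154 in the liver), and the sum without Spp1 was 20.7 and 21.2 RPKM. In animal 4 the whole sum was 22.0 RPKM in the tumor, the lowest of the tumors, and 51.4 in the liver. The part of these cells in the flagged levels was not tested.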

How the results depend on the processing

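The direction of a marker's difference turned in 12 of 631 comparisons of a marker with an alternative setting, all for Gpc3 or Akr1b7 at differences that never passed the test. Tumors minus DKO livers came to above 0 for Gpc3 with an offset of 0.1 (0.00697), median-of-ratios scaling (0.0296), quantile normalization (0.0485), the tag as a covariate (0.412) and without animal 3 (0.208), and lay between -0.71 and 0.86 with each library left out. DKO livers minus wild-type livers came to -0.16 for Gpc3 without animal 3 and to -0.071 for Akr1b7 without animal 4, with leave-one-out ranges of -0.16 to 1.125 and -0.071 to 0.64. For tumors against wild-type livers the number of members called was 0 with no filter, with a filter of 2 RPKM, with the tag as a covariate, within tag L03, with the replicate block and with voom on the recovered reads, 2 without animal 3 and 5 without animal 4, and 0 to 5 with each library left out. The genes called, 216 in the main fit, were 1 with no filter, 598 with median-of-ratios scaling, 478 with quantile normalization, 3 with the tag as a covariate, 25 within tag L03, 128 with the replicate block, 483 without animal 3, 284 without animal 4, and 16 to 413 with each library left out. In the fit of the 8 libraries alone Afp was not called and Spink3 was, although Spink3 reached 0.5 RPKM in only 3 of those libraries, all tumors, and had entered through a DKO liver. The same limit holds for the call of Spink3 without animal 3. For DKO livers against wild-type livers 1 gene was called with median-of-ratios scaling or the 8 libraries alone and 3 without animal 4, and 0 to 2 with each library left out. For tumors against DKO livers 2 genes were called with no filter, 0 with the stricter filter or the tag as a covariate, 24 with quantile normalization, 55 with the 8 libraries alone, 71 with the replicate block (0 members) and 180 (1 member, Afp) without animal 3. With each library left out 1 to 363 genes and 0 to 1 members were called. The replicate block used numbers that pair animals only for tumor and DKO liver, and wild-type numbers pair nothing. The settings without animals 3 and 4 were chosen after seeing the data, and the causes of these shifts were not tested. With 4 libraries a group, and fewer than 30 reads per library for Spink3 and Bex1, small differences were not detectable.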
